A study of Mus musculus with 12 samples.

Results

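The ATF4 amino acid stress response was described here as 30 genes, found by symbol in 3 deposited tables of raw counts per gene, out of 59762 rows once the tables were joined. The symbols took up 31 rows, because Ddit3 has a second row of a short overlapping model that held no counts in any library and was set aside. The members comprised 10 regulators, 10 enzymes of amino acid and one-carbon synthesis, 7 transporters and 3 other targets. The list is one of gene names and its rule uses no measured value, but it was chosen with earlier results of these data known.

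ATF4 is a bZIP transcription factor of the integrated stress response. When amino acids run short or unfolded proteins gather in the endoplasmic reticulum, kinases such as GCN2 and PERK phosphorylate the translation factor eIF2, most protein synthesis slows, and the Atf4 mRNA is translated more. ATF4 protein then pairs with C/EBP-family partners at C/EBP-ATF response elements and switches on amino acid synthesis, amino acid uptake and tRNA charging. Lymphocytes that divide draw on the serine and one-carbon branches of this programme for nucleotide synthesis. ATF4 is controlled to a large extent at translation, which transcript counts do not measure.

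The cells were B cells from mouse spleen, enriched by depletion of CD43-bearing cells on magnetic beads. The groups were double knockout (DKO) cells stimulated with anti-IgM at 10 µg/mL plus anti-CD40 at 1 µg/mL during 48 h of culture (2 libraries), wild-type (WT) cells stimulated in the same way (2 libraries), untreated DKO cells (3 libraries), untreated WT cells (3 libraries) and additional untreated WT cells (2 libraries), which entered no main test. DKO cells carried deletions of Hnrnpa1 and Hnrnpa2b1, which encode nuclear RNA-binding proteins of splicing and RNA transport, through Cre-loxP recombination. The Cre driver is not given in the sources used here. The design asks what both proteins do in B cells at rest and after stimulation through CD40 and the B cell receptor. According to the labels the untreated cells were lysed after isolation, so 48 h of culture, the antibodies and the table in which the values were deposited cannot be told apart. The labels do not say whether replicates were separate animals, so p-values measure the spread between these samples only.

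Library totals ranged from 15090953 to 21731893 counts. Values per library are CPM, the count relative to the library's total, scaled with trimmed-mean factors over all 12 libraries. Hnrnpa1 had 246 to 277 CPM in stimulated DKO libraries against 1677 to 1728 CPM in stimulated WT libraries, and 78.6 to 205 CPM in untreated DKO libraries against 683 to 720.1 CPM in untreated WT libraries. Hnrnpa2b1 had 361 to 433 CPM against 1788 to 1813 CPM in stimulated DKO and WT libraries, and 343 to 637 CPM against 1722 to 1962 CPM in untreated ones. Transcript of both genes remained in DKO libraries, and untreated DKO library 2 stood apart with 205 CPM of Hnrnpa1 and 637 CPM of Hnrnpa2b1, against at most 100.3 and 391.7 CPM in the other untreated DKO libraries. All 8 B cell markers were present in every library, and their sum was 4841 to 5670 CPM in stimulated DKO and 6437 to 6741 CPM in stimulated WT libraries, against 3299.9 to 3715 CPM and 3701 to 4157 CPM in untreated ones. Of the T cell markers, summed at 139 to 191 CPM in stimulated DKO libraries and 171 to 193 CPM in stimulated WT libraries against 48.4 to 83.0 and 74.6 to 100.3 CPM in untreated DKO and WT libraries, Lck made up most, while Cd3e, Cd3g, Cd3d, Cd4, Cd8a, Cd8b1 and Trac did not pass 1.96 CPM in any library. Plasma cell markers summed to 568 to 596 CPM and 439 to 481 CPM in stimulated DKO and WT libraries, against 665 to 764 CPM and 591 to 720 CPM in untreated ones. Stromal and endothelial markers, nearly all Pecam1, summed to 49.6 to 60.005 CPM and 109 to 119 CPM in stimulated DKO and WT libraries and 26.5 to 35.8 CPM and 52.7 to 74.0 CPM in untreated ones. Dendritic cell markers summed to 70.7 to 75.5 CPM and 40.7 to 47.9 CPM in stimulated DKO and WT libraries and 75.3 to 79.9 CPM and 58.2 to 79.5 CPM in untreated ones. The part of these markers in the results was not tested.

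The libraries labelled untreated carried transcripts of genes that B cells induce on activation. Myc had 325 to 416 CPM in stimulated DKO libraries and 164 to 182 CPM in stimulated WT libraries, against 400.4 to 555 CPM in untreated DKO libraries and 312 to 412 CPM in untreated WT libraries. The early-response gene Egr1 had 16.0 to 16.2 CPM and 12.9 to 17.01 CPM in stimulated DKO and WT libraries, against 39.3 to 46.2 CPM and 55.2 to 84.2 CPM in untreated ones. The proliferation marker Mki67 ran the other way, with 815 to 1623 CPM and 1577 to 1609 CPM in stimulated DKO and WT libraries against 129 to 271 CPM and 232 to 419.6 CPM in untreated ones. Cd83, another such gene, had 551 to 652 CPM and 618 to 654 CPM in stimulated DKO and WT libraries. In untreated ones it had 464 to 585 CPM and 489 to 521 CPM. The additional WT libraries had 222 to 249 CPM of Myc, 276 to 320 CPM of Egr1 and 447 to 567 CPM of Mki67. These genes were chosen after their values were seen, and their part in the results that follow was not tested.

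Before the values, promoter windows were searched for the letters of the element that ATF4 and C/EBP dimers bind. Elements outside the windows or with other letters were not searched. RefSeq windows from 250 bases before to 50 bases after the start of transcription (GRCm38.p6) were matched for 26 members, and Eif4ebp1, Cth, Slc7a3 and Slc7a5 had none. The element TGATGNAA, searched on both strands, was found in 8 of the 26 matched members (30.8%) and in 4.51% of 27025 genes. The cAMP response element TGACGTCA, also searched on both strands, was found in 1 matched member (Ppp1r15a) and in 2.03% of genes. No member window held both elements, so no matches overlapped. The windows of 4 members whose changes are described below are printed 5′ to 3′ along the gene, with the match in capitals. They belong to Asns (chr6:7693160-7693459, minus strand), Chac1 (chr2:119350992-119351291, plus strand), Slc1a4 (chr11:20332664-20332963, minus strand) and Trib3 (chr2:152344011-152344310, minus strand).
Asns: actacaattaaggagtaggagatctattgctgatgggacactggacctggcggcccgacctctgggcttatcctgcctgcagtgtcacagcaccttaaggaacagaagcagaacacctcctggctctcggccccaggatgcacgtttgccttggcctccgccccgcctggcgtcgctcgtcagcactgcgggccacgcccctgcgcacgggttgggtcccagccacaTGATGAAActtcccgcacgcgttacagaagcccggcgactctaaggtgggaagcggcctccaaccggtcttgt
Chac1: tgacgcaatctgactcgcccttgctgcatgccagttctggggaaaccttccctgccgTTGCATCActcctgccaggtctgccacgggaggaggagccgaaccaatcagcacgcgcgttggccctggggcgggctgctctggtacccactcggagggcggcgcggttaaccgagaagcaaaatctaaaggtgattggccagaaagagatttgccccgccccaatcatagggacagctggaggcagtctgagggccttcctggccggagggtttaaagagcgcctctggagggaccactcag
Slc1a4: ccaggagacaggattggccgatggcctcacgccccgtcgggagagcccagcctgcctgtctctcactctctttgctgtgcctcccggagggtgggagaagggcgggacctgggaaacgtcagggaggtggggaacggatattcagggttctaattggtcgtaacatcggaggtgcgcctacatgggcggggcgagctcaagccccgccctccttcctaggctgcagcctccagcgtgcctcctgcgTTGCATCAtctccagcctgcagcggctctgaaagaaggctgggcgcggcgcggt
Trib3: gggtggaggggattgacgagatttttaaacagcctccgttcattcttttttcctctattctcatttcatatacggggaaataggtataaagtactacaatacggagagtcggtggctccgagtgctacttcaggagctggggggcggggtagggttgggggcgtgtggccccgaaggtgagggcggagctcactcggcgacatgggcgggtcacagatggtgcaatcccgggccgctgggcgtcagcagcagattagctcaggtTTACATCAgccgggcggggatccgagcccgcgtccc
The match began 23 bases before the start in Asns, 193 before in Chac1 and 4 before in Slc1a4, while in Trib3 it began at base 15 of the transcript. For the other 4 members with an element the match is shown with 10 bases on each side. Their windows are Slc7a11 (chr3:50443564-50443863, minus strand, 2 matches), Nupr1 (chr7:126625421-126625720, minus strand), Pycr1 (chr11:120643699-120643998, minus strand) and Vldlr (chr19:27216770-27217069, plus strand).
Slc7a11, distal: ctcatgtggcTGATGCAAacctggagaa
Slc7a11, proximal: cctggagaatTTGCATCAtcatgcagcc
Nupr1: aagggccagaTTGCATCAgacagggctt
Pycr1: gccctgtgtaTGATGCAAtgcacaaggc
Vldlr: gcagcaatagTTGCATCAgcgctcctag
A match of letters is a description of these windows and not evidence of binding.

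Every member had a lower share of the counts in stimulated cells than in the numbered untreated libraries of the same genotype. Against the additional WT libraries, which are labelled untreated too, 28 of the 30 fell in WT, and Phgdh and Shmt2 changed sign without passing the test. Against the numbered libraries all 30 fell in DKO cells and all 30 fell in WT cells (edgeR quasi-likelihood test, Benjamini-Hochberg adjusted p at most 0.05 over 15006 genes), against 16.8% of all tested genes lower in DKO and 22.8% lower in WT. None was higher at any p, where 16.2% of all genes in DKO and 17.8% in WT were higher. For each of the 30 members all 4 stimulated libraries lay below all 6 numbered untreated ones, and groups did not overlap for 54.3% of all genes in DKO and 67.2% in WT. The median log2 change over the members was -2.67 in DKO cells and -2.45 in WT cells, beside -0.01 and -0.02 over all tested genes. A log2 change below -2 was seen for 17 members in DKO and 20 in WT, and for 3.40% and 3.87% of all tested genes. These values are relative to each library's counts, so the amount of transcript per cell was not measured. In bulk samples fewer expressing cells, less transcript of the gene per cell and more of other RNA cannot be told apart.

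**Figure D1:**
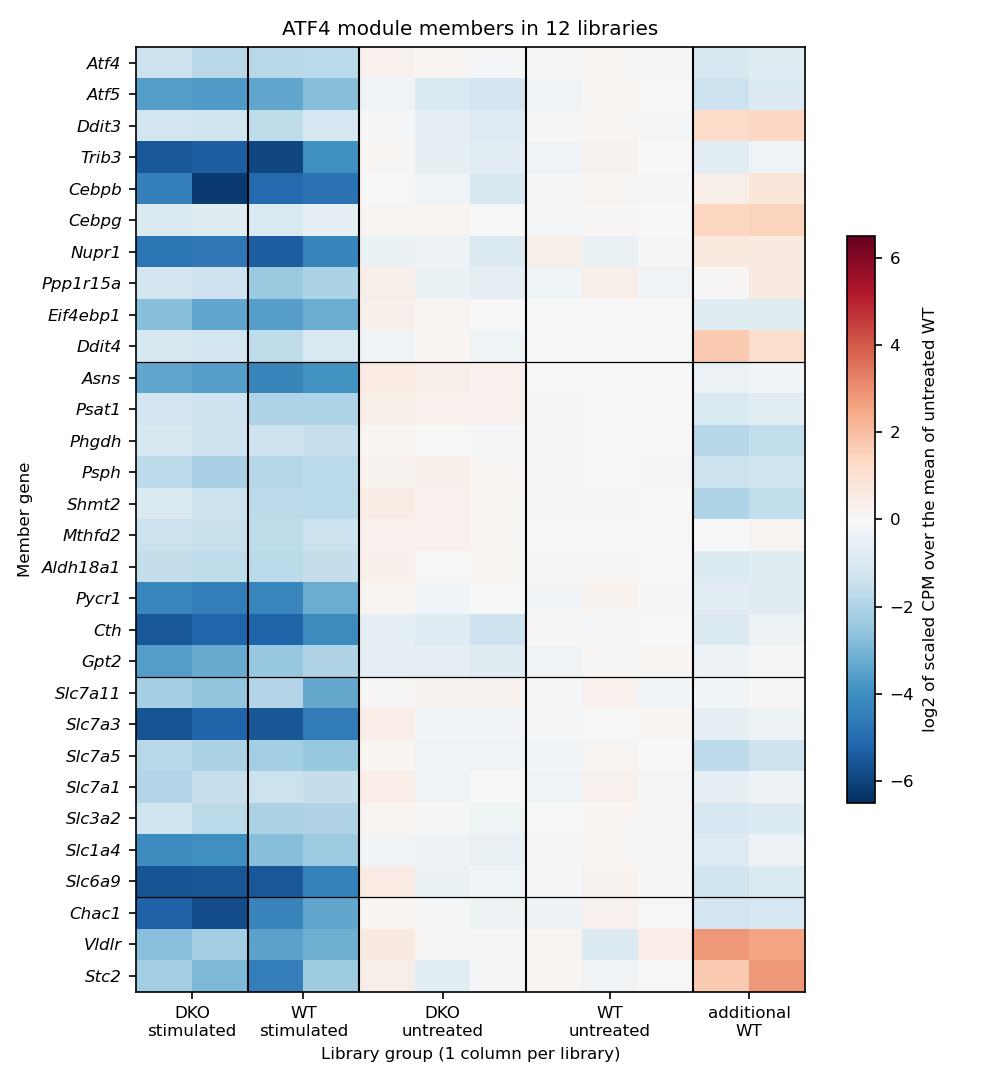
Each row is a member gene and each column a library, grouped from left to right as stimulated DKO, stimulated WT, untreated DKO, untreated WT and additional WT. Colour gives log2 of the scaled CPM over the mean of untreated WT, with 0.1 CPM added to both (blue lower, red higher). All rows are blue in the 4 stimulated columns, pale in the 6 untreated columns and mixed in the additional WT columns.

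Among the regulators, Atf4 itself had 259.6 and 199 CPM in stimulated DKO libraries and 200.1 and 207 CPM in stimulated WT libraries, against 844, 763 and 666 CPM in untreated DKO libraries and 663, 763 and 657 CPM in untreated WT libraries. Its log2 change was -1.71 ± 0.15 (± SE, as for every log2 change given here) in DKO cells and -1.79 ± 0.16 in WT cells, a 3.27-fold and a 3.46-fold lower level (edgeR adjusted p = 6.1e-06 and 3.75e-06). Levels per kilobase of exon made Atf4 one of the most abundant members even in stimulated cells, with 97.3 CPM per kilobase in DKO and 86.3 in WT, against 321 in untreated DKO and 294 in untreated WT cells.

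Several factors downstream of ATF4 had larger falls than Atf4 itself. Trib3, a pseudokinase that feeds back on ATF4, had 1.76 and 1.96 CPM in stimulated DKO libraries and 1.34 and 5.25 CPM in stimulated WT libraries. In untreated libraries it had 94.5, 56.2 and 50.8 CPM in DKO and 73.2, 100.1 and 84.6 CPM in WT. Its log2 change was -5.16 ± 0.46 in DKO and -4.74 ± 0.43 in WT. The C/EBP-family gene Cebpb changed by -5.01 ± 0.49 and -5.33 ± 0.48, and averaged 0.258 CPM in stimulated DKO and 0.295 CPM in stimulated WT libraries, against 9.12 CPM and 11.9 CPM in untreated DKO and WT libraries. Nupr1, a small stress-induced chromatin protein, was represented by 2 counts in the stimulated libraries of each genotype, against 126 counts in untreated DKO and 230 counts in untreated WT libraries. Scaled to library totals, its count ratio was 0.0195 in DKO (95% exact interval 0.00234 to 0.0720) and 0.0129 in WT (0.00156 to 0.0473). The interval covers counting error only.

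Atf5, a close relative of ATF4, changed by -2.91 ± 0.29 in DKO and -3.08 ± 0.29 in WT cells. Eif4ebp1, which encodes a repressor of cap-dependent translation, changed by -3.21 ± 0.19 and -3.43 ± 0.20. The smallest falls were those of Cebpg, Ddit3 and Ddit4. Cebpg, the usual C/EBP partner of ATF4, had 61.5 and 68.9 CPM in stimulated DKO and 60.3 and 79.3 CPM in stimulated WT libraries, against 119.9 to 137 CPM in untreated DKO and 113 to 126 CPM in untreated WT libraries. It changed by -0.99 ± 0.13 in DKO and -0.79 ± 0.13 in WT. Ddit3 (CHOP), a pro-death bZIP factor, changed by -0.76 ± 0.23 in DKO and -1.37 ± 0.23 in WT cells. Its fall in DKO cells (edgeR adjusted p = 0.023) was no longer called without DKO stimulated library 1 (0.053), DKO stimulated library 2 (0.11) or DKO untreated library 1 (0.082). Ddit4 (REDD1), an inhibitor of mTORC1, changed by -0.97 ± 0.18 and -1.30 ± 0.18. Ppp1r15a (GADD34), the phosphatase subunit that restores eIF2, changed by -1.09 ± 0.28 in DKO and -2.27 ± 0.30 in WT cells. Its DKO call was lost without DKO stimulated library 2 (edgeR adjusted p = 0.069).

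**Figure D2:**
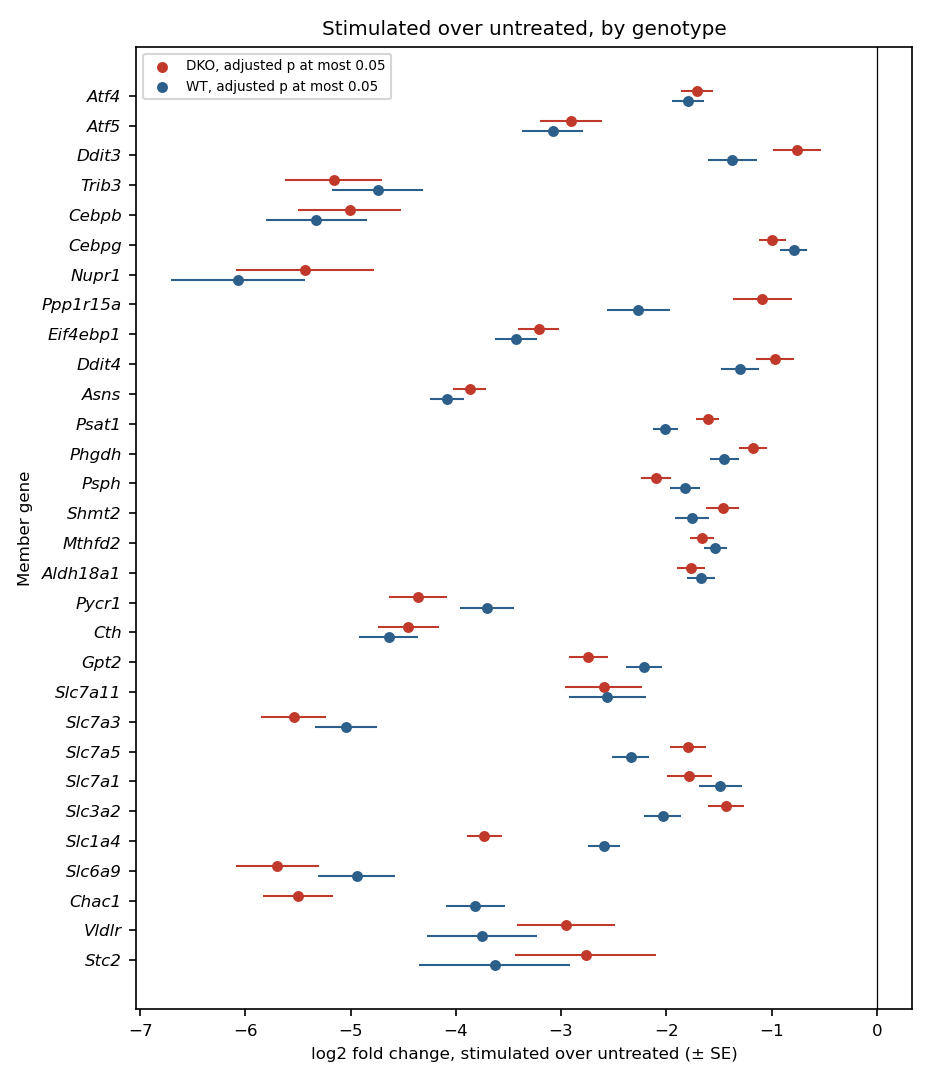
Points give the log2 fold change of stimulated over untreated cells for each member in DKO (red) and WT (blue), with bars of 1 standard error. All points lie left of 0, from -5.70 to -0.76 in DKO and from -6.07 to -0.79 in WT.

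The synthesis genes differed in size of change. Asns, which makes asparagine, had 23.9 and 20.7 CPM in stimulated DKO libraries and 12.7 and 17.01 CPM in stimulated WT libraries, against 364, 322 and 297 CPM in untreated DKO and 252, 243 and 251 CPM in untreated WT libraries. Its log2 change was -3.87 ± 0.16 in DKO and -4.09 ± 0.16 in WT, a 14.6-fold and a 16.98-fold lower level. Cth, which makes cysteine from cystathionine, had 2.12 and 2.76 CPM in stimulated DKO and 2.68 and 5.63 CPM in stimulated WT libraries, against 64.4, 55.8 and 40.4 CPM and 107, 95.5 and 102 CPM in untreated DKO and WT libraries. Its log2 change was -4.45 ± 0.29 in DKO and -4.64 ± 0.28 in WT. For both genes every untreated library had several times the level of the highest stimulated one. Pycr1, the last enzyme of mitochondrial proline synthesis, changed by -4.36 ± 0.27 in DKO and -3.70 ± 0.26 in WT. Gpt2, the mitochondrial alanine transaminase, changed by -2.74 ± 0.18 and -2.21 ± 0.17.

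The serine and one-carbon branch fell less than Asns, Cth, Pycr1 and Gpt2, though in WT Psat1 (-2.01) came near Gpt2 (-2.21). Apart from Psph, the branch stayed abundant. Phgdh, Psat1 and Psph catalyse the steps from 3-phosphoglycerate to serine, and Shmt2 and Mthfd2 carry serine carbon into mitochondrial folate. Shmt2 had 419.8 and 300.5 CPM in stimulated DKO and 243 and 236 CPM in stimulated WT libraries, against 1117, 977 and 914 CPM in untreated DKO and 761, 853 and 781 CPM in untreated WT libraries. Its log2 change was -1.46 ± 0.16 in DKO and -1.76 ± 0.16 in WT, and 0.033 in WT against the additional WT libraries (edgeR adjusted p = 0.90). Per kilobase, Shmt2 ranked first of the members in stimulated DKO cells (116 CPM per kilobase) and second in stimulated WT cells (77.0), next to Atf4 and Phgdh. In stimulated WT cells the Shmt2 and Phgdh levels (77.0 and 76.4) cannot be ordered by their spread. The log2 change of Psat1 was -1.61 ± 0.11 in DKO and -2.01 ± 0.11 in WT, that of Phgdh -1.17 ± 0.13 and -1.45 ± 0.14 (0.29 in WT against the additional WT libraries, edgeR adjusted p = 0.16), and that of Mthfd2 -1.66 ± 0.11 and -1.53 ± 0.11. Psph changed by -2.10 ± 0.14 and -1.82 ± 0.14. Aldh18a1, which starts proline synthesis from glutamate, changed by -1.77 ± 0.13 and -1.67 ± 0.13.

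The transporters also differed in size of change. Slc7a3, a cationic amino acid carrier, had 1.26 and 1.72 CPM in stimulated DKO and 1.34 and 2.82 CPM in stimulated WT libraries, against 90.5, 59.1 and 58.7 CPM in untreated DKO and 61.8, 67.5 and 72.2 CPM in untreated WT libraries. It fell 46.6-fold in DKO and 33.0-fold in WT. Slc6a9, the glycine transporter GlyT1, changed by -5.70 ± 0.40 in DKO, the lowest change of any member there, and -4.94 ± 0.37 in WT. Slc1a4, which carries alanine, serine and cysteine, changed by -3.73 ± 0.17 and -2.59 ± 0.15. The abundant carriers changed less. Slc7a5, the large neutral amino acid carrier, had 163 and 134 CPM in stimulated DKO and 124 and 102 CPM in stimulated WT libraries, against 608, 468 and 476 CPM in untreated DKO and 503, 636 and 552 CPM in untreated WT libraries. Its log2 change was -1.79 ± 0.17 in DKO and -2.34 ± 0.18 in WT. Slc3a2, the heavy chain that pairs with Slc7a5 and Slc7a11, changed by -1.43 ± 0.17 and -2.03 ± 0.18. The arginine and lysine carrier Slc7a1 changed by -1.78 ± 0.21 and -1.49 ± 0.21, and Slc7a11, the cystine-glutamate exchanger, by -2.60 ± 0.37 and -2.56 ± 0.37 relative to a low level of 7.23 and 6.36 CPM in untreated DKO and WT cells.

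Of the remaining targets, Chac1, which degrades glutathione, had 1.16 and 0.798 CPM in stimulated DKO and 2.43 and 4.64 CPM in stimulated WT libraries, against 52.9, 44.6 and 39.2 CPM in untreated DKO and 38.9, 58.8 and 48.5 CPM in untreated WT libraries. It changed by -5.50 ± 0.33 in DKO and -3.81 ± 0.28 in WT. The lipoprotein receptor Vldlr and the secreted glycoprotein Stc2 were low in all 10 libraries, with means of 3.95 and 1.92 CPM in untreated DKO and 3.27 and 2.04 CPM in untreated WT cells. Vldlr changed by -2.95 ± 0.47 in DKO and -3.75 ± 0.52 in WT, and Stc2 by -2.77 ± 0.67 and -3.63 ± 0.72.

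The 8 members with a C/EBP-ATF element in the window had a median log2 change of -4.11 in DKO and -3.78 in WT cells, and the 18 matched members without one had -1.68 in DKO and -1.81 in WT. The ranges overlapped, from -5.50 to -2.60 with the element and -5.70 to -0.76 without it in DKO, and from -6.07 to -2.56 with it and -5.33 to -0.79 without it in WT. This split is a description and was not tested.

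Several genes share their locus with another gene. Reads were counted with a strand setting that is not given in the sources used here. Reads of Ddit3 and Mars1, Atf5 and Nup62, Cebpb and Tmem189, and Psph and Cct6a, which lie on opposite strands and overlap, cannot be told apart. In each pair the partner had more counts than the member, so values of these 4 members are uncertain.

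The other genes of the pathway moved to different degrees. Per list, genotype and direction, up to 2 genes with the smallest adjusted p are named. A gene named in 1 genotype may therefore be called in the other too. Of these lists only Cdkn1a and Gadd45b were called for an interaction of genotype and stimulation. Their counts are read against all tested genes, of which 16.8% fell and 16.2% rose in DKO, and 22.8% fell and 17.8% rose in WT. The cytosolic aminoacyl-tRNA synthetases, which charge tRNAs and include known ATF4 targets, fell for 18 of 23 genes in DKO and 21 of 23 in WT, with medians of -0.94 and -1.10. Cars changed by -1.97 ± 0.11 in DKO and -1.85 ± 0.11 in WT, and Nars by -1.79 ± 0.12 and -1.57 ± 0.12. Qars alone rose, in DKO (0.36 ± 0.11, edgeR adjusted p = 0.025). A list of further stress-response targets fell for 21 of 32 genes in DKO and 23 of 32 in WT, and rose for 7 and 4. Its members Vegfa (-3.00 ± 0.31) and Rab39b (-3.56 ± 0.37) fell in DKO, and the cell cycle inhibitor Cdkn1a (-4.70 ± 0.31) and Gadd45b (-2.31 ± 0.19) fell in WT. Klhl24 and Ccng2 rose in both genotypes, by 0.87 ± 0.19 and 1.41 ± 0.25 in DKO and by 1.48 ± 0.18 and 1.74 ± 0.24 in WT.

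Other bZIP factors fell for 10 of 19 genes in DKO and 12 of 19 in WT. Atf3, a stress-induced repressor, changed by -3.43 ± 0.28 in DKO and -4.98 ± 0.32 in WT, and Nfe2l1 by -1.66 ± 0.16 and -1.64 ± 0.16. Cysteine and glutathione genes fell for 6 of 13 in DKO and 9 of 13 in WT, among them Hmox1 (-2.49 ± 0.23 in DKO and -1.91 ± 0.21 in WT) and Gsr (-1.34 ± 0.16 and -1.59 ± 0.16). Gpx1 and Gpx4 rose in DKO, by 0.56 ± 0.15 and 0.47 ± 0.13. Genes of amino acid sensing and mTORC1 fell for 8 of 34 in DKO and 10 of 34 in WT and rose for 2 and 3. Their median log2 change was -0.14 in both genotypes, and over all genes 16.8% fell in DKO and 22.8% in WT. Sesn2, an ATF4 target and leucine sensor, changed by -1.98 ± 0.23 in DKO and -2.67 ± 0.24 in WT, and its relative Sesn1 by 0.52 ± 0.15 and 1.36 ± 0.14. Lamtor2 changed by -1.02 ± 0.13 and -0.98 ± 0.13, Rragd rose by 1.32 ± 0.36 in DKO and Sesn3 rose by 0.67 ± 0.18 in WT.

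Among the genes for the eIF2 kinases, eIF2, eIF2B and their cofactors, 5 of 20 fell and 2 rose in DKO, and 11 fell and 2 rose in WT. Eif2s2 fell in both (-0.74 ± 0.11 in DKO and -0.91 ± 0.11 in WT), Ppp1r15b fell in DKO (-0.56 ± 0.11), Eif2b3 fell in WT (-1.17 ± 0.16), and Eif2ak3 (PERK) rose in WT by 0.63 ± 0.11. Other serine, glycine and one-carbon genes fell for 6 of 19 in DKO and 11 of 19 in WT, whereas with the additional WT libraries as the untreated samples 1 fell and 10 rose in WT. The mitochondrial folate enzyme Aldh1l2, a known ATF4 target, changed by -6.53 ± 0.42 in DKO and -4.64 ± 0.34 in WT, and Gcsh by -1.03 ± 0.15 in WT. Ahcy rose by 1.40 ± 0.16 and 0.77 ± 0.16, and Tyms rose by 0.77 ± 0.17 in DKO. Without the unnumbered WT library the WT falls dropped to 4 in the eIF2 list and 5 in the one-carbon list.

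Proline, glutamate, aspartate and branched-chain genes outside the members fell for 5 of 19 in DKO and 6 of 19 in WT and rose for 4 and 2, a share near that of all genes. Bcat1, which starts branched-chain breakdown, changed by -2.64 ± 0.14 in DKO and -2.62 ± 0.14 in WT, Got1 fell by 0.83 ± 0.15 in DKO, and Prodh fell by 2.21 ± 0.27 in WT. Ass1, which makes argininosuccinate, rose by 1.64 ± 0.28 and 1.96 ± 0.25, Asl rose by 0.56 ± 0.14 in DKO and Glul by 0.36 ± 0.12 in WT. Of the other amino acid transporters 5 of 20 fell and 5 rose in DKO, and 5 fell and 7 rose in WT. Slc38a7 changed by -1.74 ± 0.25 and -1.46 ± 0.25, the glutamine carrier Slc1a5 by -0.83 ± 0.13 and -1.27 ± 0.13, and the taurine carrier Slc6a6 by 0.51 ± 0.11 and 0.56 ± 0.11 in DKO and WT. Slc43a3 rose by 0.58 ± 0.10 in DKO and Slc38a9 by 0.79 ± 0.14 in WT.

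**Figure D3:**
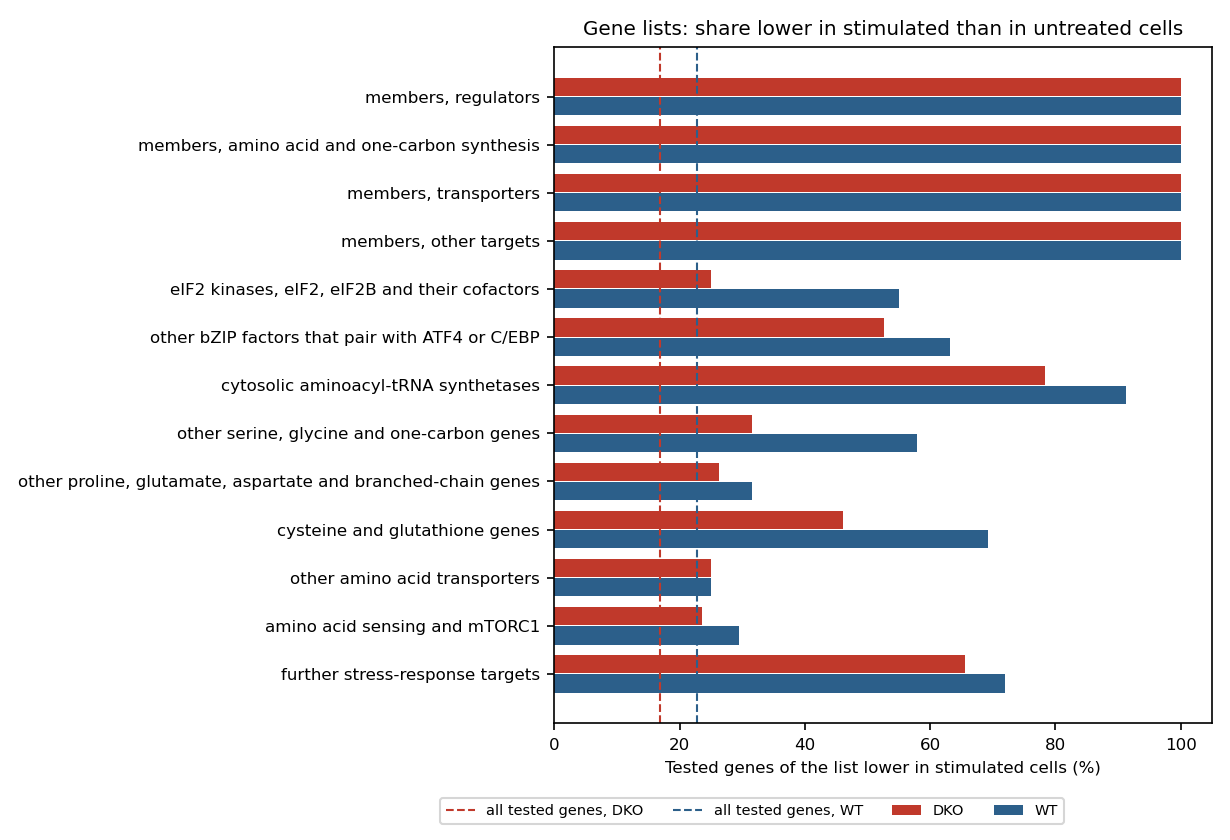
Bars give the share of tested genes of each list called lower in stimulated than in untreated cells (%), DKO in red above WT in blue. Dashed lines mark the share over all tested genes, 16.8% in DKO and 22.8% in WT. The member lists reach 100% in both genotypes and the tRNA synthetases come next.

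In untreated cells most members were not called between DKO and WT, and those called went in both directions. Of 30 members 4 rose (8.81% of all 13561 tested genes did) and 4 fell (10.6% did), and the median log2 change was -0.02 against -0.01 over all genes. Groups did not overlap for 10 members, where 39.1% of all genes had none. The comparisons of genotypes use the same libraries as those of stimulation, so they are given side by side and not as independent results. Atf4 had 844, 763 and 666 CPM in DKO against 663, 763 and 657 CPM in WT libraries, a change of 0.11 ± 0.10 that did not pass the test (edgeR adjusted p = 0.46).

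The 4 members that rose were synthesis genes. Asns averaged 328 ± 33.7 CPM in untreated DKO and 249 ± 4.68 CPM in untreated WT libraries (SD, n = 3 each), a rise of 0.39 ± 0.08 (edgeR adjusted p = 0.012). Psat1 averaged 777 ± 36.5 CPM and 619.96 ± 23.4 CPM in DKO and WT, a rise of 0.31 ± 0.07 (edgeR adjusted p = 0.014). Shmt2 rose by 0.32 ± 0.09 (0.036) and Mthfd2 by 0.22 ± 0.07 (0.046), with edgeR adjusted p in parentheses. All 3 DKO libraries lay above all 3 WT libraries for each of these genes, by 1.16-fold to 1.31-fold on average.

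The 4 that fell were the synthesis genes Cth and Gpt2, the carrier Slc1a4 and the regulator Atf5. Cth averaged 53.5 ± 12.2 CPM in untreated DKO and 101 ± 5.96 CPM in untreated WT libraries, a change of -0.94 ± 0.15 (edgeR adjusted p = 0.0046). Gpt2 averaged 52.1 ± 3.49 CPM and 83.9 ± 10.2 CPM, a change of -0.70 ± 0.10 (edgeR adjusted p = 0.0040). Slc1a4 changed by -0.34 ± 0.10 (0.039) and Atf5 by -0.75 ± 0.23 (0.047). For Atf5 the DKO libraries had 73.8, 42.6 and 36.7 CPM against 73.9, 94.1 and 87.4 CPM in WT, so that DKO library 1 lay just under WT library 1. The calls of Atf5, Slc1a4, Shmt2, Mthfd2, Psat1 and Asns were each lost on leaving out at least 1 library, Asns without WT library 3 only (edgeR adjusted p = 0.067). The rises numbered 2 without DKO library 1 or 2 or WT library 1, 1 without DKO library 3 and 0 without WT library 3. The falls numbered 6 without DKO library 1 and 2 without DKO library 3 or any single WT library. Without DKO library 2, which keeps the most Hnrnpa1 and Hnrnpa2b1 transcript, the falls numbered 3. Pooling the additional with the numbered WT libraries, edgeR called no member in either direction, and these 8 had adjusted p-values of 0.055 to 0.72. Cth and Gpt2 were called on leaving out any single library. The other 22 members had changes of -0.57 to 0.25 in untreated cells and did not pass the test.

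**Figure D4:**
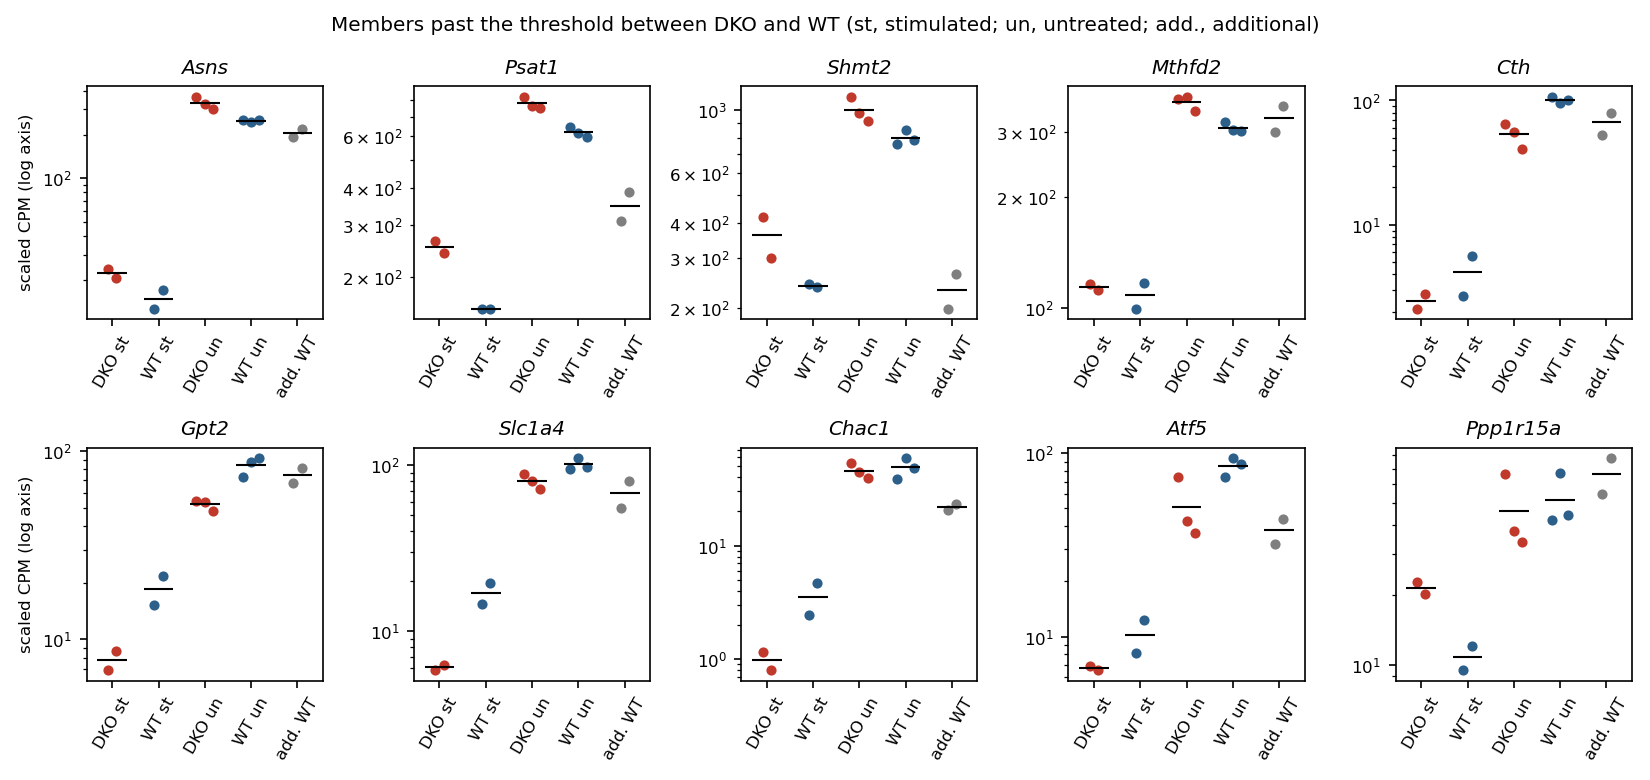
Scaled CPM (log axis) of the 10 members past the threshold between DKO and WT in untreated or stimulated cells. Each point is a library, the line is the group mean, and groups run from stimulated DKO to additional WT. Slc1a4 and Chac1 in stimulated cells show the widest gaps, with 5.80 to 6.26 CPM in DKO against 14.6 to 19.4 CPM in WT for Slc1a4.

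In stimulated cells 26 members were tested, since Cebpb, Nupr1, Vldlr and Stc2 had too few counts. Of these 2 rose in DKO (5.09% of all 14430 genes did) and 3 fell (6.17% did), with a median of 0.05 against -0.03 over all genes. Groups did not overlap for 12 of the 26 members and for 61.3% of all genes. Slc1a4 had 5.80 and 6.26 CPM in DKO libraries against 14.6 and 19.4 CPM in WT libraries, a change of -1.51 ± 0.23, or 2.85-fold lower (edgeR adjusted p = 0.0071). Chac1 had 1.16 and 0.798 CPM against 2.43 and 4.64 CPM, a change of -1.85 ± 0.45 (edgeR adjusted p = 0.035). Gpt2 had 6.86 and 8.71 CPM against 15.2 and 21.6 CPM, a change of -1.26 ± 0.25 (edgeR adjusted p = 0.017). DKO lay below WT in every library for all of them. Chac1 and Gpt2 lost their calls without the unnumbered WT library (0.36 and 0.10), and the falls then numbered 1.

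Ppp1r15a had 22.7 and 20.1 CPM in stimulated DKO libraries against 9.50 and 12.1 CPM in stimulated WT libraries, a rise of 0.97 ± 0.20 or 1.96-fold (edgeR adjusted p = 0.021). Psat1 had 265 and 242 CPM against 157 and 156 CPM, a rise of 0.68 ± 0.17 (edgeR adjusted p = 0.038). It was the only member that rose in both states, and Gpt2 and Slc1a4 fell in both. Without WT library 1 both rises were lost (edgeR adjusted p = 0.17 and 0.34), without the unnumbered WT library Psat1 was (0.43), and without DKO library 2 the rises numbered 9. Asns (0.57 ± 0.20, edgeR adjusted p = 0.10) and Shmt2 (0.57 ± 0.20, 0.096) lay higher in both stimulated DKO libraries than in WT but did not pass the test. Atf4 changed by 0.15 ± 0.19 (edgeR adjusted p = 0.61). Only 2 libraries a group stand behind these tests.

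**Figure D5:**
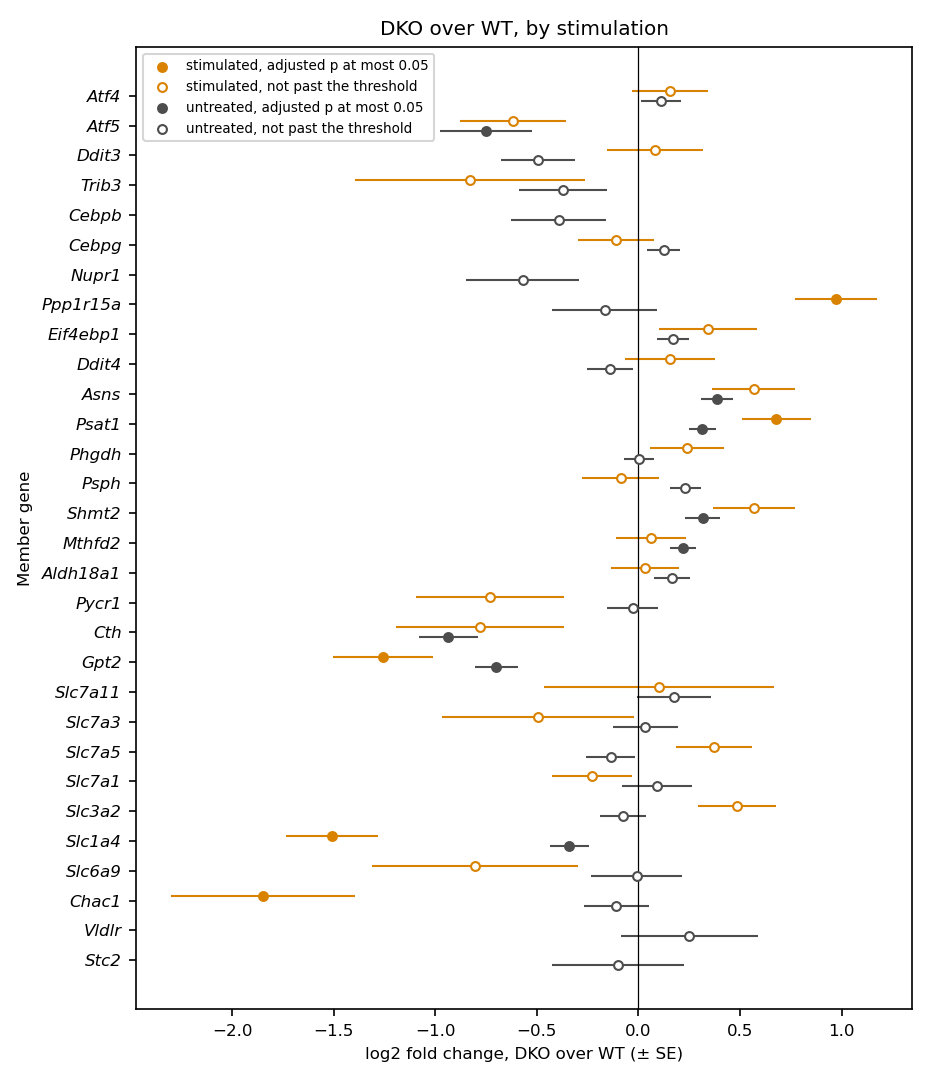
Points give the log2 fold change of DKO over WT for each member in stimulated (orange) and untreated (grey) cells, with bars of 1 standard error. Filled points passed the threshold, and members too low to test in stimulated cells have a grey point only. Values scatter around 0, from -1.85 (Chac1) to 0.97 (Ppp1r15a) in stimulated cells.

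Whether the genotype changed the response to stimulation was tested as an interaction, the change in DKO minus the change in WT. No member was called by edgeR (0.133% of all genes were called higher and 0.00666% lower). At an unadjusted p under 0.05 there were 7 of 30 members and 1802 of 15006 genes. Slc1a4 came nearest, with an interaction of -1.14 ± 0.21 (edgeR adjusted p = 0.053), then Chac1 with -1.69 ± 0.43 (0.18) and Ppp1r15a with 1.18 ± 0.39 (0.29). DESeq2 called 2 members, Slc1a4 and Chac1, both lower (adjusted p = 0.000686 and 0.00862). Atf4 had an interaction of 0.08 ± 0.21 (edgeR adjusted p = 0.90). Among the further stress targets Cdkn1a (3.93 ± 0.38) and Gadd45b (1.59 ± 0.24) were called, with DKO over WT differences in stimulated cells of 3.62 ± 0.32 and 1.81 ± 0.22 (edgeR adjusted p = 0.0012 and 0.0035).

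In the other pathway genes the genotype comparison is read against all genes, of which 8.81% rose and 10.6% fell in untreated DKO cells and 5.09% rose and 6.17% fell in stimulated DKO cells. The naming rule is the same, so a gene named in 1 state may be called in the other too. The further stress-response targets had the most calls, with 6 rises and 5 falls among 30 in stimulated DKO cells and 4 rises and 7 falls among 32 in untreated DKO cells. Without single libraries their rises numbered 2 to 12 in stimulated and 1 to 2 in untreated cells, and their falls 2 to 7 and 2 to 9. None of the 23 tRNA synthetases was called in either state by edgeR or DESeq2. At an unadjusted edgeR p under 0.05 there were 2 in stimulated and 7 in untreated cells. Of all tested genes, 4348 of 14430 in stimulated and 4700 of 13561 in untreated cells had such a p. With a term for sex 8 of the synthetases rose and 1 fell in untreated DKO cells. Of 20 genes for the eIF2 kinases, eIF2, eIF2B and their cofactors, 4 rose and 1 fell in untreated DKO cells. Eif2a (0.38 ± 0.06) and Eif2s1 (0.30 ± 0.08) were among those that rose, and Eif2ak4 (-0.31 ± 0.08), the gene for GCN2, fell. The number of rises in this list was 1 without any single DKO library or without WT library 1 or 3. In stimulated DKO cells Eif2b5 (0.72 ± 0.18) and Eif2b3 (0.72 ± 0.19) rose. Of 19 other one-carbon genes 3 rose and 3 fell in untreated cells, and 1 rose and 2 fell in stimulated cells. Shmt1, the cytosolic counterpart of Shmt2, rose by 0.90 ± 0.18 in stimulated and 0.41 ± 0.07 in untreated DKO cells, and Mtr rose by 0.39 ± 0.09 in untreated cells. The serine carrier Sfxn3 changed by -1.53 ± 0.22 in stimulated and -1.31 ± 0.16 in untreated cells, and Amt by -1.35 ± 0.26 in untreated cells. Of the bZIP genes Jdp2 (1.71 ± 0.27) and Batf (0.99 ± 0.18) rose and Bach2 (-0.92 ± 0.24) fell in stimulated DKO cells, and Atf3 (-0.45 ± 0.11) fell in untreated ones.

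Ass1 fell in DKO cells in both states (-1.74 ± 0.21 in stimulated and -1.38 ± 0.27 in untreated cells), and Asl fell by 0.56 ± 0.11 in untreated cells. The amino acid carriers Slc7a7 and Slc43a2 fell in both states as well. Slc7a7 changed by -1.39 ± 0.23 in stimulated and -1.03 ± 0.16 in untreated cells, and Slc43a2 by -1.003 ± 0.20 and -0.71 ± 0.13. Slc15a4 rose by 0.32 ± 0.08 in untreated cells. Hmox1 (-0.45 ± 0.11) and Gpx4 (-0.36 ± 0.10) fell in untreated DKO cells. In the mTORC1 list Rragb rose in untreated cells (0.66 ± 0.17), and Rragd (1.78 ± 0.43) and Rptor (0.67 ± 0.17) rose while Sesn1 (-0.83 ± 0.18) and Castor2 (-1.23 ± 0.28) fell in stimulated cells. Of the further stress targets Hspe1 (0.52 ± 0.08) and Tnfrsf10b (0.56 ± 0.13) rose and Xbp1 (-0.60 ± 0.10) and Ndrg1 (-1.29 ± 0.24) fell in untreated DKO cells, and Ndrg1 (-1.17 ± 0.18) and Rab39b (-2.17 ± 0.45) fell in stimulated ones.

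The additional WT libraries, also labelled untreated, gave another picture of the members' starting level. Against the 3 numbered untreated WT libraries 19 members were lower in both additional libraries, 7 were higher and 4 overlapped. Atf4 had 339 and 399.99 CPM in the additional libraries against 663, 763 and 657 CPM in the numbered ones, and Shmt2 had 198 and 263 CPM against 761, 853 and 781 CPM. In all 4 stimulated libraries 28 of the 30 members were still lower than in both additional libraries. Taken as the untreated reference for WT, these libraries left 28 members called lower in stimulated WT cells. Phgdh (0.29, edgeR adjusted p = 0.16) and Shmt2 (0.03, 0.90) then changed sign. Summed monocyte and macrophage markers, of which Adgre1 made up most, were 195 to 247 CPM in the additional libraries and 65.6 to 74.8 CPM in the numbered ones, and their part was not tested. The companion lists moved more with that reference, so that in WT 1 one-carbon gene fell and 10 rose, and 11 tRNA synthetases fell and 4 rose. These alternatives were added after the data were seen.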

How the data were processed

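RNA sequencing of poly(A)-selected transcripts was deposited for 12 libraries in 3 tables. The values used were raw counts per gene as deposited by the authors, and the FPKM columns were not used. Per the submitters' processing notes, FastQC 0.10.1, cutadapt 1.9.1, HISAT2 2.2.1 and HTSeq 0.6.1 were used with GRCm39. The sources used here give neither the strand setting of the counting nor the release of the gene models. The table of the additional WT libraries gives gene coordinates of another build, so it was joined by gene identifier (52330 shared genes, 55349 for the other 10 libraries). Counts limit precision through library totals of 15090953 to 21731893. One stimulated WT column carries a number that no stimulated WT label has, so it was treated as an unnumbered replicate, and the additional WT columns were mapped to their group only.

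Differences were tested on counts with edgeR 4.0.16 in R 4.3.3 (trimmed-mean scaling, filterByExpr with minimum count 10 and minimum total 15, quasi-likelihood test, Benjamini-Hochberg adjustment over all tested genes, threshold 0.05). DKO and WT were compared in separate fits for each state, with 4 residual degrees of freedom for untreated and 2 for stimulated cells. Stimulated against untreated cells and the interaction came from 1 fit over 10 libraries with 6. Standard errors were derived from the log2 fold change and its F statistic. The procedure was run on simulated counts with the same spread set for every gene, which checks the code and not these results.

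All 30 members are reported, and of each other list up to 2 genes per direction with the smallest adjusted p. Some genes are not reported here. The members and lists were chosen with earlier results of these data known. Alternatives were other size factors, DESeq2 1.42.0, looser and stricter filters, leaving out immunoglobulin genes or single libraries, a block for the replicate number, a term for sex, male libraries only, a joint or separate fit, and other uses of the additional WT libraries. Sex was inferred from whether Xist or Ddx3y had more counts. The untreated libraries of each genotype included both sexes, and the alternatives with sex were run on untreated cells only. Same-numbered untreated DKO and WT libraries deviated with correlations of -0.353, -0.351 and 0.139, so the numbers were not taken to pair them. Promoter sequences came from RefSeq on GRCm38.p6.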

Additional observations from a re-analysis of the deposited data

Results flagged for a closer look

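In the additional WT libraries, which entered no main comparison, 7 members were above all 3 numbered untreated WT libraries in both libraries, opposite to most members. They were 5 regulators, namely the C/EBP genes Cebpg and Cebpb, the pro-death factor Ddit3, the mTORC1 inhibitor Ddit4 and Nupr1, and the targets Vldlr and Stc2. Cebpg averaged 317 CPM in the additional and 119 CPM in the numbered libraries, a ratio of 2.67. Ddit4 averaged 360.1 and 132 CPM (2.73), and Ddit3 73.3 and 29.96 CPM (2.45). Vldlr averaged 21.7 and 3.27 CPM (6.66), and Stc2 10.9 and 2.04 CPM (5.33). Cebpb averaged 18.1 and 11.9 CPM (1.52), and Nupr1 6.23 and 3.99 CPM (1.56). No test was made of these differences, since the additional libraries were deposited in a table of their own and the table cannot be told apart from the samples.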

How the results depend on the processing

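The fall of the members with stimulation kept its direction in DKO under every alternative run, with 28 to 30 called lower when single libraries were left out. In WT 30 were lower without any single library and 28 with the additional WT libraries as the untreated WT samples, where Phgdh (0.29) and Shmt2 (0.033) turned positive. None was called higher. The genotype comparisons were less stable. In untreated cells the 4 rises and 4 falls became 0 and 2 with the replicate number as a block, where Atf5, Asns, Psat1, Shmt2, Mthfd2 and Slc1a4 lost their calls at edgeR adjusted p of 0.057 to 0.13. They became 0 and 0 when the additional libraries were pooled with the numbered WT ones, and the rises became 2 in 1 fit over 10 libraries. Leaving out single libraries gave 0 to 3 rises and 2 to 6 falls, and a term for sex gave 5 and 6. In stimulated cells the 2 rises became 5 in 1 fit over 10 libraries, and leaving out single libraries gave 0 to 9 rises and 1 to 4 falls. With 1 library left in an arm, it is assumed to vary like the others. For the interaction edgeR without a filter called 1 member higher (Ppp1r15a) and 2 lower (Slc1a4 and Chac1), DESeq2 called 2 lower, and leaving out single libraries gave 0 to 2 higher (Psat1 and Slc3a2 without DKO stimulated library 2) and 0 to 1 lower. The cause of these changes was not tested. Other size factors, the stricter filter and leaving out immunoglobulin genes changed no count of members. No paired analysis was possible for stimulated DKO against WT because the columns share only the number 1. Male libraries only and the additional WT libraries as the untreated samples were chosen after seeing the data.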
